A study of Arabidopsis thaliana with 7 samples.

Results

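Cytochrome P450 genes of Arabidopsis thaliana were examined for peaks of the fusion protein ZF-DDR5 in seedlings. The genes were chosen by name, as protein-coding genes of the RefSeq TAIR10.1 table whose symbol is CYP followed by a family number, a subfamily letter and a gene number. This form leaves out the cyclophilins, which also carry CYP symbols. It gave 219 of the 27444 protein-coding genes on the 5 nuclear chromosomes, in 40 CYP families, of which 14 had at least 5 genes. The series holds 7 chromatin immunoprecipitation samples of seedlings at day 12, namely 2 of ZF-DDR5, 2 of ZF-DDR4, 2 of untransformed Col-0 and, marked g3 as are the ZF-DDR5 titles, 1 more of Col-0. Every value below comes from the 1 peak list given for ZF-DDR5 replicate 1, a line with the genotype entry ZF-DDR5 in which a zinc finger is joined to DDR5. The labels name neither the promoter that drives this fusion nor the number of independent ZF-DDR5 lines.

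The list held 9999 peaks, each a chromosome, start and end without a score, and their median width was 484 bp. No second ZF-DDR5 list and no Col-0 list was analysed here, so no value has a replicate error, and whether Col-0 seedlings share these peaks is unknown. Sequencing depth is unknown too. P450 genes had been taken up because earlier counts on this same list already showed many peak centres in their bodies. Their share is therefore given as a description, and no test of it was made. Intervals after shares are exact (Clopper-Pearson) 95% intervals, which cover counting error only and treat neighbouring genes as independent.

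Cytochrome P450 enzymes are heme-containing monooxygenases, most of them anchored in the endoplasmic reticulum and fed with electrons by a P450 reductase. Plants have many of them, because lineages of related genes were copied in tandem and took on new substrates. They make or break down brassinosteroids, gibberellins, abscisic acid, cytokinins and jasmonates, build cutin, suberin and lignin precursors, and form defence compounds such as glucosinolates, camalexin and triterpenes. Families are numbered by protein similarity, and families of common descent are joined into clans. DDR5 is a DDT-domain protein related to DDR4, and proteins with this domain join ISWI remodellers, which slide and space nucleosomes.

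Of the 219 P450 genes, 82 (37.4%, interval 31.0% to 44.2%) had at least 1 peak centre inside the gene, against 26.9% of all protein-coding genes. Those 82 genes held 95 centres, 13 of them with 2 and none with more. A pair of centres or more was seen in 5.94% of P450 genes and in 3.88% of all protein-coding genes. P450 genes are compact, with a median length of 2054 bp (range 1120 to 5826 bp), close to the median of 2078 bp over the other protein-coding genes. Any overlap of at least 1 bp with a peak gave the same 82 P450 genes, against 28.2% of all protein-coding genes. With a reach of 1000 bp beyond both gene edges, 89 of the 219 P450 genes had a centre, against 10006 of 27444 protein-coding genes (36.5%). P450 genes thus stood less far above all genes than with centres inside the gene. In 2 cases the centre also lay in a second gene, AT1G17065 beside CYP72C1 and the terpene synthase gene TPS13 beside CYP71A19.

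Long genes hold more peaks than short ones, so genes of like length were set side by side. Among genes of 1501 to 2000 bp, 37 of 88 P450 genes (42.0%, interval 31.6% to 53.0%) had a centre, against 1014 of 4586 other genes (22.1%, interval 20.9% to 23.3%). At 2001 to 2500 bp the counts were 30 of 77 P450 genes (39.0%) and 1146 of 4153 other genes (27.6%). That gap of 11.4 percentage points came to 3.29 points without 3 tandem clusters on chromosome 3 that are described below, 3.73 points with the wider 50% of the peaks and 3.18 points with a reach of 1000 bp. The gap narrowed at 2501 to 3000 bp, with 11 of 30 P450 genes (36.7%) and 1001 of 3167 other genes (31.6%), and without the same 3 clusters it turned to -0.838 points, from 8 of 26 P450 genes. Above 3000 bp it ran the other way, with 4 of 22 P450 genes (18.2%, interval 5.19% to 40.3%) and 3009 of 6988 other genes (43.1%). The 4 long ones with a centre were CYP72C1, CYP722A1, CYP735A1 and CYP97A3. P450 genes known under another symbol are counted among the other genes here. Above 3000 bp these were BAS1, KAO2, HPL1, ROT3 and CPD with a centre and BR6OX1, BR6OX2, DWF4 and LUT1 without. Over all protein-coding genes, P450 genes included, the shares in these 4 bands were 22.5%, 27.8%, 31.7% and 43.0%. In the shortest band, up to 1500 bp, neither of the 2 P450 genes had a centre, against 13.4% of all protein-coding genes.

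**Figure D1:**
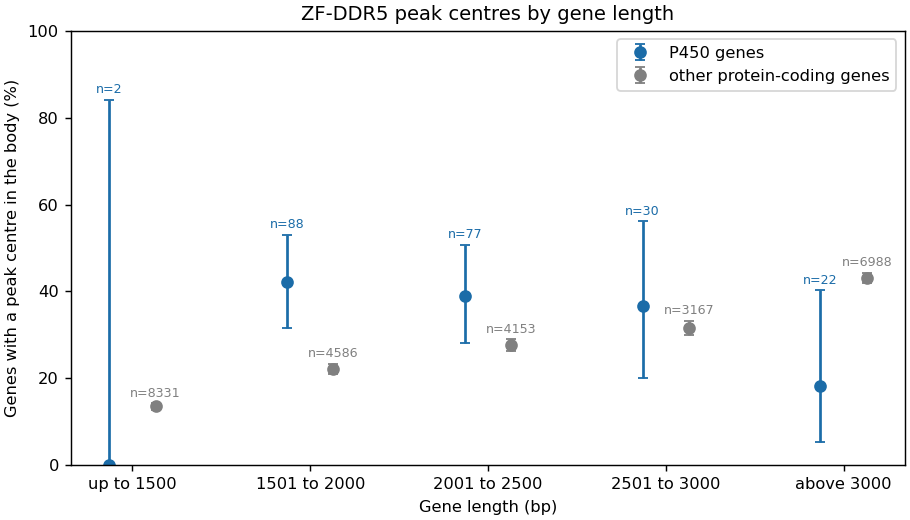
Percentage of genes with at least 1 ZF-DDR5 peak centre in the body (y axis) in bands of gene length in bp (x axis), for P450 genes (blue) and other protein-coding genes (grey). P450 genes known under another symbol are counted among the other genes. Points are shares, bars are exact 95% binomial intervals and n is the number of genes; the P450 share lay above that of other genes from 1501 to 3000 bp and below it above 3000 bp, and without 3 tandem clusters on chromosome 3 the gap at 2501 to 3000 bp turned to -0.838 percentage points.

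The CYP72 family had a centre in 8 of 9 genes (88.9%, interval 51.8% to 99.7%), the highest share among the 14 larger families. With the wider 50% of the peaks its share was 55.6%, below 66.7% in CYP89 and 60% in CYP82. All of its genes but CYP72C1 lie in 1 tandem cluster. The widest was in CYP72A15 (AT3G14690), where a peak of 1666 bp lay at chr3:4937501-4939166 (TAIR10). CYP72A10 carried 1322 bp and CYP72A8 carried 1235 bp. CYP72A14 held a pair of peaks of 562 and 684 bp, and CYP72A13 a single one of 640 bp. Narrow peaks of 332 and 325 bp lay in CYP72A7 and in CYP72A9, a gibberellin hydroxylase gene. CYP72C1, which inactivates brassinosteroids, had one of 302 bp, and CYP72A11 had none. The family thus spans nearly the whole range of widths among P450 peaks, 286 to 1713 bp.

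The CYP71 family, the largest, is best known for defence compounds, and 20 of its 48 genes (41.7%, interval 27.6% to 56.8%) had a centre. By subfamily, the counts were 16 of 32 CYP71B genes (50.0%, interval 31.9% to 68.1%) and 4 of 16 CYP71A genes (25%, interval 7.27% to 52.4%). These intervals overlap. Of those 20 genes, 11 lay in a pair of CYP71B clusters on chromosome 3, described below with the tandem clusters. Without the genes of this pair of clusters, 9 of 32 CYP71 genes (28.1%) had a centre, close to the 26.9% of all protein-coding genes. These 9 genes were spread over all 5 chromosomes. CYP71A19 held the widest of these, 1198 bp, centred near its high-coordinate edge. CYP71B9 had a peak of 966 bp, CYP71B10 one of 906 bp and CYP71B31 one of 734 bp. CYP71B28 had a pair of 629 and 341 bp. The remaining 4 were narrow, at 463 bp in CYP71A28, 424 bp in CYP71A26, 396 bp in CYP71B32 and 306 bp in CYP71A23.

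CYP86, CYP94 and CYP96 each had a centre in 50% of their genes, with broad intervals that take in the 26.9% of all protein-coding genes. CYP86, CYP94 and CYP96 enzymes, together with CYP704, form the CYP86 clan of fatty acid and alkane hydroxylases. In CYP96 the count was 6 of 12 genes (50.0%, interval 21.1% to 78.9%). Its widest peaks were 1477 bp in CYP96A9 and 1430 bp in CYP96A1. The others measured 651 bp in CYP96A10, 592 and 392 bp in CYP96A12, 356 bp in CYP96A5 and 329 bp in CYP96A3. CYP96A15, the midchain alkane hydroxylase of stem wax, had none. CYP86 had 5 of 10 genes, of which 4 were among the 5 CYP86A genes and 1 was CYP86B1, while 0 of 4 CYP86C genes had a centre. CYP94 had 3 of 6, and these were the 3 CYP94B genes. Over the CYP86 clan, 15 of 31 genes (48.4%, interval 30.2% to 66.9%) had a centre.

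CYP81 and CYP705 came closer to the share over all genes. In CYP81, 6 of 16 genes (37.5%, interval 15.2% to 64.6%) had a centre, and all 6 were CYP81D genes, of which there are 9. Their peaks were narrow, 435 bp in CYP81D2, 426 bp in CYP81D7, 410 bp in CYP81D3, 345 bp in CYP81D8, 325 bp in CYP81D1 and 296 bp in CYP81D4. In CYP705, 8 of 24 genes (33.3%, interval 15.6% to 55.3%) had a centre. CYP705A1 (AT4G15330), which cleaves the triterpene arabidiol in roots, carried the widest of all P450 peaks, 1713 bp at chr4:8751360-8753072 (TAIR10), rank 56 of the 9999 peaks by width. Next came 667 bp in CYP705A33, a pair of 624 and 341 bp in CYP705A8, 567 bp in CYP705A9 and 431 bp in CYP705A3. CYP705A23, CYP705A5 and CYP705A22 had peaks of 362, 310 and 286 bp, the last being the narrowest on any P450 gene.

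Small families varied widely, and their intervals are broad. CYP89 had 4 of 6 genes with a centre. CYP89A9, whose enzyme modifies chlorophyll breakdown products, had a pair of 740 and 595 bp, and CYP89A7 a pair of 510 and 470 bp. CYP89A6 had one of 791 bp and CYP89A3 one of 557 bp. CYP82 had 3 of 5 genes, CYP79 had 2 of 7, CYP78 had 1 of 6 and CYP76 had 1 of 8, namely CYP76G1 with 369 bp. CYP706 had 0 of 7 (interval 0% to 41.0%) and CYP702 had 0 of 6 (interval 0% to 45.9%). The 26 families with fewer than 5 genes had 15 of 49 together (30.6%, interval 18.3% to 45.4%). By clan, the shares were 12 of 18 genes (66.7%) in the CYP72 clan, 49 of 142 (34.5%) in the CYP71 clan, 3 of 20 (15.0%) in the CYP85 clan and 3 of 8 (37.5%) in clans of a single family. The CYP85 clan holds many hormone enzymes, but the genes counted here also include 6 CYP702A and 3 CYP708A genes, none with a centre. Its CYP707A genes had 2 of 4. The clan also has long genes, with a median of 2927 bp, and 31.7% of all protein-coding genes of 2501 to 3000 bp had a centre. Clan counts leave out P450 genes known under another symbol. Among these are the hormone genes CPD, ROT3 and KAO2 with a centre and DWF4, BR6OX1 and BR6OX2 without.

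**Figure D2:**
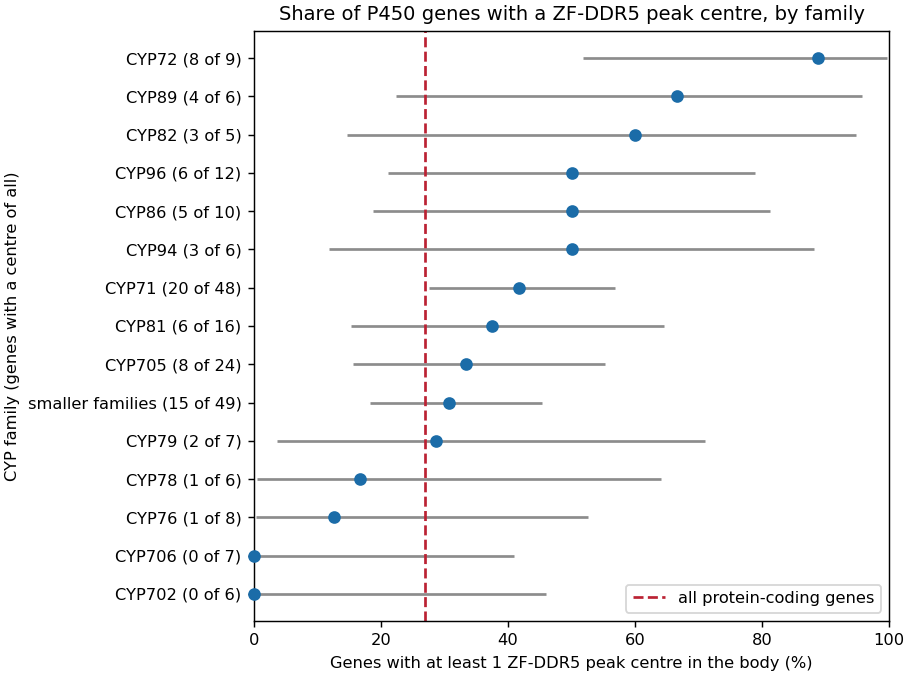
Percentage of genes with at least 1 ZF-DDR5 peak centre in the body (x axis) for each CYP family of 5 or more genes and for the smaller families pooled (y axis, with counts). Points are shares, bars exact 95% binomial intervals, and the dashed line is the 26.9% of all protein-coding genes; shares ran from 0 of 7 in CYP706 and 0 of 6 in CYP702 to 8 of 9 in CYP72, of whose genes 8 lie in 1 tandem cluster.

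Tandem copies were compared with genes that stand alone. A tandem cluster was a run of genes of one CYP family with at most 2 other protein-coding genes between neighbours, which gave 37 clusters with 124 genes. Of these clustered genes 45 (36.3%, interval 27.8% to 45.4%) had a centre, against 37 of 95 single genes (38.9%, interval 29.1% to 49.5%). The difference was -2.66 percentage points (interval -15.5 to 10.0), and its sign turned to 7.25 points when clusters were limited to direct neighbours. Among genes of 1501 to 2500 bp the shares were 40 of 96 clustered genes (41.7%) and 27 of 69 single genes (39.1%). A difference between clustered and single genes was not detectable in this list. Near-identical copies can share reads, and how such reads were handled is not given, so the split of peaks among close copies is uncertain.

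The clusters differed greatly among themselves. In 18 of the 37 no gene had a centre, in 18 some had one, and in 1, the pair CYP705A8 and CYP705A9, every gene had one. The 4 clusters with the most centres held 32 genes, of which 22 had a centre (68.8%, interval 50.0% to 83.9%). The remaining clusters had 23 of 92 genes (25%, interval 16.6% to 35.1%), close to the 26.9% of all protein-coding genes. The last place was tied at 4 centres between the runs CYP81H1 to CYP81F4 and CYP96A9 to CYP96A12 and went to the CYP81 run for its larger number of genes, and with the CYP96A run in its place the count was 21 of 28 (75%). The 4 were picked by their counts, so the contrast is given only as a description. Of the 87 pairs of neighbours within clusters, 20 had a centre in both genes, 31 in one of the pair and 36 in neither. No like count was made for other neighbouring genes, so whether these pairs differ from them is unknown. Of the 61 peaks centred within the clusters, 55 lay in a clustered P450 gene, 2 in other protein-coding genes and 4 outside protein-coding genes, of which 2 lay in the P450 pseudogenes CYP71B18 and CYP71B33. Protein-coding genes thus took 93.4% of them, against 84.9% of all 9999 peaks. The clusters were measured from their first to their last P450 gene, and clustered P450 genes cover 58.6% of that sequence. These shares are therefore not from like stretches of the genome.

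Of the 4 clusters 3 lie on chromosome 3, and they bring that chromosome above the others. The run from CYP71B25 to CYP71B37 had 5 of 7 genes with 9 centres in 21.1 kb. The run from CYP72A7 to CYP72A15 had 7 of 8 genes with 8 centres in 27.5 kb. The run from CYP71B16 to CYP71B24 had 6 of 9 genes with 6 centres in 34.4 kb. On chromosome 3, 31 of 59 P450 genes (52.5%) had a centre, against 1414 of 5401 other genes there (26.2%), and outside the 3 clusters 13 of 35 did. The P450 shares on chromosomes 1, 2, 4 and 5 were 23.9%, 36.4%, 38.1% and 30.8%, against 27.6%, 25.3%, 27.1% and 27.1% of other genes. Without the 3 clusters, 64 of 195 P450 genes (32.8%) had a centre, and among those of 1501 to 2500 bp 52 of 145 (35.9%) did, against 2160 of 8739 other genes of that length (24.7%).

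Within some clusters several copies carried their peaks at like distances from the low-coordinate edge. Strand is not given, so that edge can be either end of a gene. Over all P450 genes the centres lay a median of 517.5 bp from the nearest edge (quartiles 392 and 719 bp). Distances of that order are therefore not particular to tandem copies. In CYP71B4 the pair was centred 517.5 and 1608.5 bp from the low-coordinate edge of the gene. CYP71B34 had its pair at 515.5 and 1588 bp, and CYP71B35 at 538.5 and 1662 bp. CYP71B26 followed with 438 and 1404.5 bp. Others in these clusters differed, with the single centre of CYP71B36 at 980.5 bp and those of the CYP71B16 to CYP71B24 run anywhere from 182 bp in CYP71B16 to 1751.5 bp in CYP71B24. In the cluster from CYP81H1 to CYP81F4 on chromosome 4, 4 of 8 genes had 1 centre each. These lay 410.5 bp from the low-coordinate edge in CYP81D4, 403.5 bp in CYP81D3, 380 bp in CYP81D2 and 616 bp in CYP81D8. In the CYP96A cluster the centres lay at 1050 bp in CYP96A9, 1133 bp in CYP96A10 and 568.5 and 1131.5 bp in CYP96A12. The CYP72A cluster showed no such order, with centres from 544.5 bp in CYP72A14 to 1927 bp in CYP72A9.

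**Figure D3:**
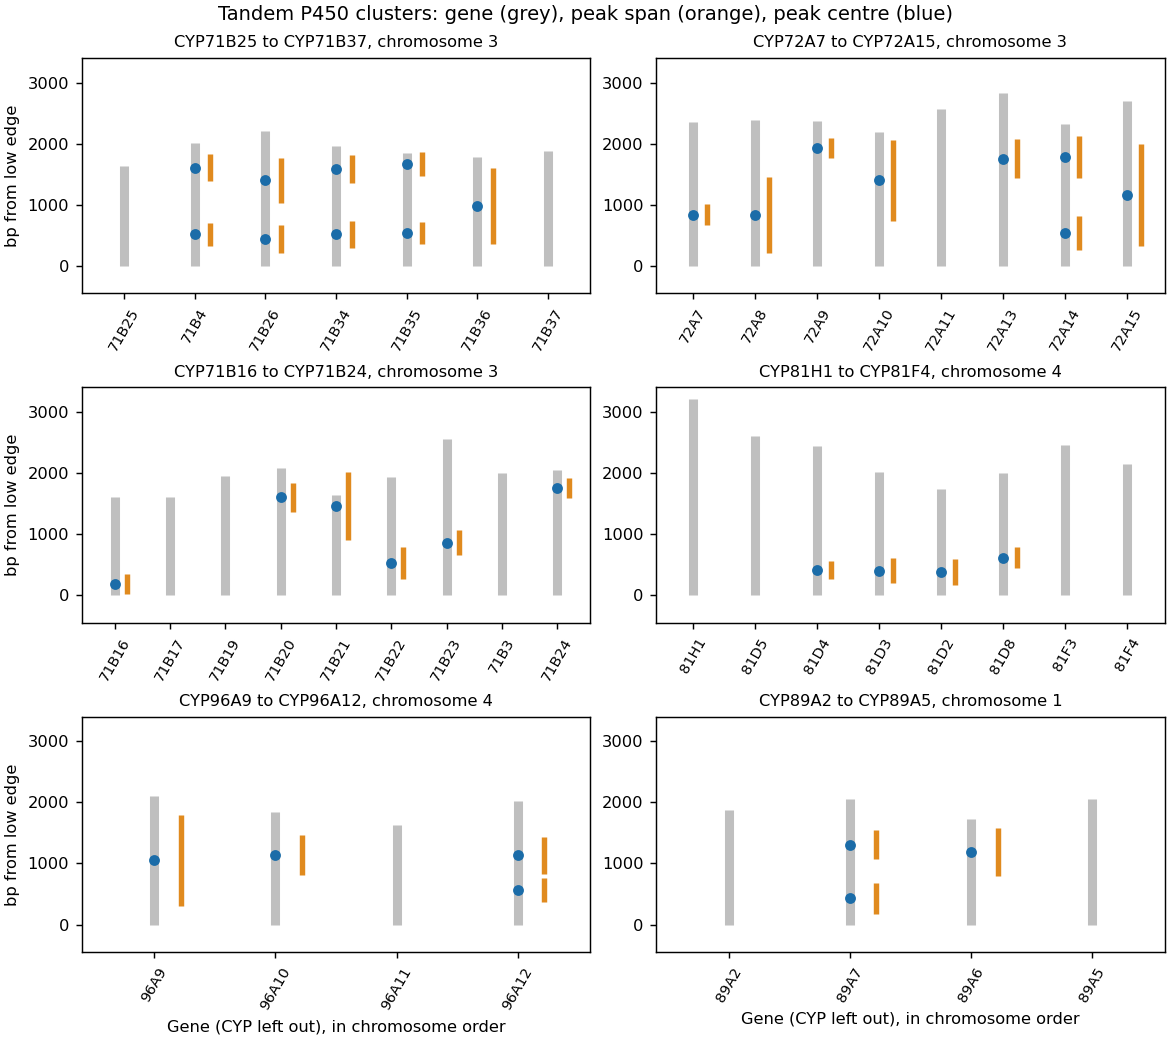
The 6 tandem clusters with the most peak centres, with genes in chromosome order (x axis) and distance from the low-coordinate edge of each gene in bp (y axis). Grey bars are genes, orange bars peak spans and blue points peak centres. CYP71B4, CYP71B34 and CYP71B35 carry pairs at similar distances, while the second centre of CYP71B26 lies nearer the low-coordinate edge. The 4 CYP81D genes shown with a peak carry it 380 to 616 bp from that edge, and strand is not given.

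Fewer peak centres lay in the middle part of P450 genes than in either flank. The gene table gives no strand, so positions run from the edge of lower to that of higher coordinate and do not tell the start of the gene from its end. Cut into 3 equal parts, P450 genes held 35 centres (36.8%) in the low-coordinate part, 24 (25.3%, interval 16.9% to 35.2%) in the middle and 36 (37.9%) in the high-coordinate part. The middle held 38.8% of centres (19 of 49) when only the wider 50% of the peaks were kept, and 3.23% (1 of 31) among peaks that start and end in the same part. In genes of 1501 to 2500 bp the middle held 17 of 78 centres on P450 genes (21.8%, interval 13.2% to 32.6%) and 776 of 2346 on other genes (33.1%, interval 31.2% to 35.0%). The central stretch from 40 to 60% of the gene length held 7 of those 78 centres on P450 genes (8.97%) and 481 on other genes (20.5%). The stretches from 20 to 30% and from 70 to 90%, picked after seeing the plot, held 49 on P450 genes (62.8%) and 874 on other genes (37.3%). Over all lengths, the centres lay a median of 517.5 bp from the nearest edge in P450 genes (quartiles 392 and 719 bp) and 625.5 bp in other genes (quartiles 382 and 1094 bp). Within 1501 to 2500 bp these medians were 486.5 bp for P450 genes and 528 bp for other genes.

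**Figure D4:**
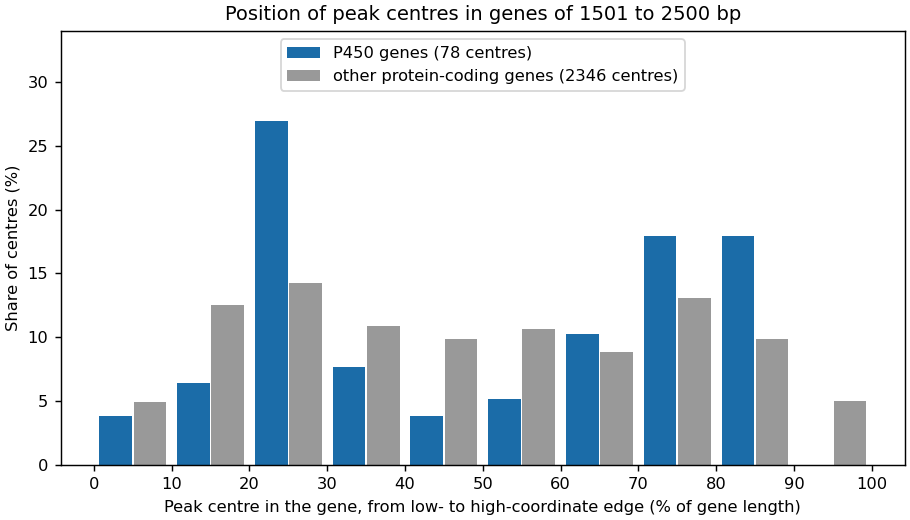
Share of ZF-DDR5 peak centres in percent (y axis) in 10 equal bins along genes of 1501 to 2500 bp, from the low- to the high-coordinate edge (x axis, percent of gene length), for P450 genes (blue, 78 centres) and other protein-coding genes (grey, 2346 centres). P450 centres are most frequent from 20 to 30% and from 70 to 90% of the length.

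The 13 P450 genes that hold 2 centres were taken at any gene length, and their pairs are among the 95 centres above. Their first centre lay at a median of 25.7% of the gene length and their second at 78.0%, a median of 1091 bp apart (range 563 to 1423 bp). In the 178 other genes of 1501 to 2500 bp with 2 centres the medians were 21.4%, 76.9% and 1032 bp. In 9 of the 13 (69.2%) one centre was in the low-coordinate part and the other in the high-coordinate part, against 101 of those 178 other genes (56.7%). Besides the CYP71B and CYP72A14 genes named above, the 13 include CYP707A1 and CYP707A3, which hydroxylate abscisic acid for its breakdown. CYP707A1 had peaks of 1177 and 311 bp centred at 30.1% and 80.9% of the gene, and CYP707A3 had 345 and 770 bp at 28.1% and 78.0%. CYP709B2 had 673 and 393 bp at 27.5% and 83.4%. The exceptions were CYP89A7, CYP89A9, CYP71B26 and CYP96A12, in which the second centre fell in the middle part. Among P450 genes of any length with a single centre the middle part held 20 of 69 (29.0%, interval 18.7% to 41.2%). In other genes of 1501 to 2500 bp with a single centre it held 695 of 1978 (35.1%).

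Peak widths on P450 genes resembled those elsewhere. The median was 510 bp (quartiles 370 and 722 bp) on P450 genes and 493 bp (quartiles 373 and 713 bp) on other genes. A peak of 1000 bp or more was centred in 12 P450 genes, or 5.48% of them, against 3.24% of all protein-coding genes. Following the 3 CYP72A genes, CYP705A1, CYP96A9 and CYP96A1 given above, these were CYP84A4 (1644 bp), an enzyme of arabidopyrone synthesis, CYP71B36 (1258 bp), CYP71A19 (1198 bp), CYP707A1 (1177 bp), CYP71B21 (1128 bp) and CYP78A9 (1059 bp), which promotes fruit and seed growth. The wide peaks were placed differently from the narrow ones, with 8 of 12 on P450 genes of any length centred in the middle part (66.7%). In other genes of 1501 to 2500 bp 174 of 258 such peaks (67.4%) were too. The peak in CYP84A4, at chr5:1212664-1214307 (TAIR10), was centred at 50.0% of a gene of 1908 bp. Most peaks lay wholly within the gene, 85 of 95 on P450 genes (89.5%) and 87.4% on other genes.

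P450 genes were also grouped by pathway, in lists of 3 to 14 genes. The background for their counts is the 26.9% of all protein-coding genes, or the 22.5%, 27.8%, 31.7% and 43.0% in the 4 length bands above 1500 bp, and no list was tested against it. The lists also hold P450 genes that the table gives under another symbol, and such genes are marked by that symbol. Of 9 brassinosteroid genes 4 had a centre, and all 9 are longer than 3000 bp, where 43.0% of all protein-coding genes had one. These were CYP72C1 and BAS1, which inactivate the hormone, and CPD and ROT3, which make it. BAS1 had a pair of peaks of 393 and 354 bp, CPD one of 340 bp and ROT3 one of 398 bp, while DWF4, an early enzyme of its synthesis, had none. Of 5 gibberellin genes 2 had one, KAO2 with 1445 bp and the ent-kaurene oxidase GA3 with 620 bp. CYP88A3, which acts in the same step as KAO2, and CYP714A1 and CYP714A2, which modify gibberellins, had none.

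Jasmonate and oxylipin genes had a centre in 4 of 6 cases. CYP94B1 (642 bp), CYP94B2 (589 bp) and CYP94B3 (517 bp) had one each, and CYP94B1 and CYP94B3 oxidise the active jasmonate. The hydroperoxide lyase gene HPL1 had a pair of 437 and 554 bp, whereas AOS, the entry enzyme of jasmonate synthesis, and CYP94C1 had none. Of the 4 abscisic acid hydroxylase genes, CYP707A2 and CYP707A4 had none. CYP735A1, a cytokinin hydroxylase, had 425 bp, but its partner CYP735A2 and the strigolactone enzyme gene CYP711A1 had no centre.

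Glucosinolate and camalexin genes had a centre in 4 of 14 cases, close to the 26.9% of all protein-coding genes. CYP79B2 (298 bp) and CYP79B3 (710 bp), which turn tryptophan into indole-acetaldoxime, and CYP83B1 (535 bp), the next enzyme toward indole glucosinolates, had one. CYP82C2 had 624 bp. No centre lay in CYP79F1, CYP79F2 or CYP83A1 of the methionine-derived branch, or in the camalexin genes CYP71A12, CYP71A13 and PAD3. None lay in the CYP81F genes of indole glucosinolate modification either, which are CYP81F2, CYP81F3, CYP81F4 and CYP81F1, given in the table as CYP91A2. CYP79F1 with CYP79F2 and CYP71A12 with CYP71A13 are close copies, so their lack of peaks is uncertain.

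Cutin, suberin and wax genes had a centre in 5 of 11 cases. CYP86A1 (384 bp) and CYP86B1 (780 bp) belong to suberin, CYP86A2 (409 bp) and CYP86A4 (466 bp) to cutin, and CYP86A7 (987 bp) is a relative of these. None lay in CYP86A8, CYP77A4, CYP77A6 or the pollen wall genes CYP703A2 and CYP704B1. Phenylpropanoid genes had 4 of 7, with 804 bp in C4H, 337 bp in FAH1, 438 bp in TT7 and the wide peak in CYP84A4, while CYP98A3, CYP98A8 and CYP98A9 had none. In C4H, FAH1 and TT7 the centre lay at 84.4%, 84.1% and 85.0% of the gene length, and in CYP84A4 at 50.0%. Strand is not given, so like positions can be different ends of the genes. The stretch from 80 to 90% held 18.9% of the centres on P450 genes with a CYP symbol. Sterol and carotenoid genes had 3 of 8, the sterol demethylase gene CYP51G1 (827 bp), CYP710A3 (666 bp) and the carotenoid hydroxylase gene CYP97A3 (307 bp).

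Terpene genes had a centre in 4 of 10 cases. Besides CYP705A1 these were CYP705A5 (310 bp) of the thalianol pathway, CYP82G1 (846 bp), which forms a volatile homoterpene, and CYP71B31 (734 bp). CYP708A2, the thalianol hydroxylase gene next to CYP705A5, had none, and neither had the marneral gene CYP71A16 or the linalool oxidase gene CYP76C1. Of their partner genes outside the P450s, the synthase genes THAS1 and MRN1 had peaks of 567 and 404 bp, and PEN1, whose product CYP705A1 cleaves, had none. Of the 6 CYP78A growth genes, only CYP78A9 had one, and CYP78A5 (KLUH), which promotes organ growth, did not.

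**Figure D5:**
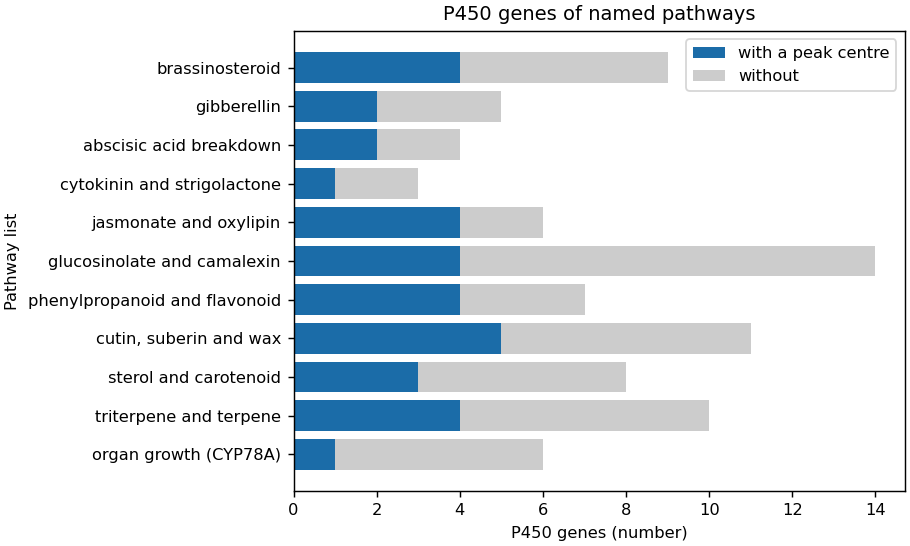
Number of P450 genes with (blue) and without (grey) a ZF-DDR5 peak centre in the body (x axis) in each pathway list (y axis), including P450 genes listed under another symbol. Counts ran from 1 of 6 CYP78A growth genes to 4 of 6 jasmonate and oxylipin genes.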

How the data were processed

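Chromatin immunoprecipitation sequencing was done on seedlings, with an anti-FLAG antibody per the labels' protocols, whose text describes DDR4 lines. Tools listed in the submitters' processing notes are deepTools 3.5.1, Picard 2.25.6, SAMtools, Bowtie2 2.4.2 and fastp 0.20.1, with the build TAIR10. The deposited file analysed here gives the authors' peak intervals, with chromosome, start and end and no score. The peak caller, its threshold, its control and any pooling or row limit were not given in the sources used here, and each could change which genes have a peak. Depth is unknown.

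Peak centres were assigned to RefSeq TAIR10.1 genes with pandas 2.3.3, and intervals were computed with scipy 1.17.1. That assembly differs in name from the peaks' build, so no gene coordinates are printed. Unshifted, 8493 centres lay in protein-coding genes, against 8489 and 8486 after shifts of 50 bp up and down and at most 8311 after shifts of 200 to 5000 bp. The assignment was tested on simulated data. Strand, exons and sequences were not used, so the planned promoter and protein comparisons were not made. All 96 listed genes matched the table.

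The genes and lists were chosen with earlier results of these data known. Named are genes with 2 centres, the 12 with the widest peaks, those of the 4 clusters with the most centres (ties by number of genes) and pathway genes. Other members were named after their values were seen, as were clans and P450 pseudogenes.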

Additional observations from a re-analysis of the deposited data

How the results depend on the processing

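Of 96 alternatives to 22 results, 86 changed the value by less than its counting interval, or a count by less than 1.5 times, and kept the direction. This tally is lenient, because intervals of small families are broad. The gap at 2001 to 2500 bp counts among the 86 with a reach of 1000 bp, though it fell from 11.4 to 3.18 points. Any overlap of 1 bp and at least 50% of the peak inside the gene each gave the same 82 P450 genes again. Counts of P450 genes alone thus stayed as they were under these settings. A reach of 1000 bp beyond the gene gave 89 of 219, and with that reach 36.5% of all protein-coding genes had a centre. Adding other symbols gave 91 of 235. Keeping the wider 50% of the peaks left 47 P450 genes and, by construction, fewer peaks. It left 18.8% of CYP71 genes, 0% of CYP76 and 0% of CYP81 genes, and put 38.8% of centres in the middle part of P450 genes. With these peaks 24 of 88 P450 genes and 538 of 4586 other genes had a centre at 1501 to 2000 bp. The counts were 15 of 77 and 654 of 4153 at 2001 to 2500 bp, and 8 of 30 and 554 of 3167 at 2501 to 3000 bp. Above 3000 bp they were 0 of 22 and 1775 of 6988. The share over all protein-coding genes was not computed for these peaks. With peaks whose start and end lay in the same part, which takes out wide ones, the middle held 3.23%. Within 1000 bp CYP72 reached 100%. The tandem minus single difference turned to 1.13 points within 1000 bp and to 7.25 points for direct neighbours only. The cause was not tested. Without the 3 clusters on chromosome 3, added after seeing the data, the gap at 2501 to 3000 bp turned to -0.838 points, from 8 of 26 P450 genes. No paired analysis was possible because there was 1 peak list and no result comes from a test between groups. The list holds no score for a stricter threshold, and with no strand given the distance to the nearer gene edge was used. How depth limits the peaks was not assessed.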

Other observations

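P450 genes that the table gives under another symbol had a peak centre in 9 of 16 cases (56.3%, interval 29.9% to 80.2%), against 26.9% of all protein-coding genes. Their median length was 3234 bp, and 43.0% of all protein-coding genes above 3000 bp had a centre. BAS1 and HPL1 had 2 centres each. P450 pseudogenes had one in 4 of 12 cases. The pseudogenes CYP71B33 (1614 bp) and CYP71B18 (713 bp) lie within the CYP71B runs on chromosome 3, and CYP96A7 had a peak of 1046 bp and CYP51G2 one of 304 bp. Among the electron donors, the reductase gene ATR2 had 2 centres (302 and 707 bp) and ATR1 had none. The cytochrome b5 gene CB5-A had a peak of 1082 bp in a gene of 1114 bp, CB5-C had 2 centres, and CB5-B, CB5-D, CB5-E and the reductase gene CBR had none.

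Other enzyme families of specialised metabolism had lower shares when set beside the 37.4% of P450 genes, which were taken up for their many peaks. No difference was tested. Over all protein-coding genes the share was 26.9%, close to that of the UGT genes. Glycosyltransferase genes with UGT symbols had a centre in 15 of 58 cases (25.9%, interval 15.3% to 39.0%), and in 14 of 51 (27.5%) at 1501 to 2500 bp, where P450 genes had 67 of 165 (40.6%, interval 33.0% to 48.5%). Beta-glucosidase genes (BGLU) had one in 3 of 40 cases (7.50%) and serine carboxypeptidase-like genes (SCPL) in 1 of 14 (7.14%). Their median lengths were 3155 and 3186 bp. Above 3000 bp, 43.0% of all protein-coding genes and 4 of 22 P450 genes with a CYP symbol (18.2%) had one.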
